A study of Mus musculus with 16 samples.

Results

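The cadherins and protocadherins are calcium-dependent adhesion proteins of the cell surface, and the 78 genes described here were followed in the developing mouse face by tissue, genotype and litter. Members were chosen by gene symbol (Cdh followed by a number, or Pcdh followed by a number or cluster letters) and by a mean of at least 0.1 TPM (a transcript level corrected for transcript length and scaled to the library) over all 16 libraries. Of 35639 rows of the TPM table, 90 carried such a symbol once Cdh1 and Cdh5 were set aside, and 78 of these reached the limit. Just inside it were Pcdhb13 with a mean of 0.13 TPM and Pcdhb14 with 0.153 TPM, and just outside it were Pcdhb12 with 0.0943 TPM and Pcdha9 with 0.0871 TPM. Because level chose the members, their levels are given as a description.

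The libraries came from the mandible and the frontonasal prominence (FNP, the lateral and medial nasal processes together) of 8 embryos at E11.5, so each embryo gave 2 libraries of polyA RNA. The mutants, numbered 3, 4, 5 and 6, had the genotype Srf flox/flox; Wnt1-Cre, in which the Wnt1 promoter drives Cre in neural crest, so that Srf, a transcription factor of cytoskeletal and muscle genes, is removed from crest-derived cells but not from epithelium, endothelium, muscle or other cells of the same dissected piece. The 4 controls were 2 embryos with Srf flox/+; Wnt1-Cre (embryos 1 and 7), 1 with Srf flox/flox and no Cre (embryo 2) and 1 with Srf flox/+ (embryo 8), so every embryo carried at least 1 floxed allele and 2 of the 4 controls also carried Cre. All were on a 129S4 background. By the deposited design table, embryos 6, 7 and 8 formed the second litter (1 mutant, 2 controls) and embryos 1 to 5 the first litter (3 mutants, 2 controls). In whole tissue, fewer cells of a type and less RNA per cell cannot be told apart.

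Srf itself was at 10.8 to 14.1 TPM in mutant mandibles against 34.4 to 65.9 TPM in control mandibles, and at 11.8 to 14.7 TPM in mutant FNPs against 34.7 to 75.2 TPM in control FNPs. The groups did not overlap in either tissue, and the joint log2 difference was -2.06 (SE 0.138, limma adjusted p = 8.48e-08). Totals of the scaled gene values were 10.2 m to 11.2 m per library. The defining mesenchyme markers (Twist1, Prrx1, Pdgfra, Msx1 and others) summed to 1702 to 2143 TPM in mandibles and 2215 to 2957 TPM in FNPs, with none at 0. Single markers went both ways, with 2 of 10 higher and 7 lower in mandibles at a limma adjusted p of at most 0.05. Prrx1 averaged 340 TPM in mandibles and 129 TPM in FNPs, and Alx1 34.5 TPM and 321 TPM. Whether the tissues differed in their share of mesenchyme was not tested. The libraries of mutant embryo 3, which the design table puts in the first litter, lay near the second litter in many members, as the values below show. Counts of called members are therefore also given without that embryo.

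Classical cadherins bind their own kind on the neighbouring cell through extracellular cadherin repeats and tie the junction to actin through beta-catenin and alpha-catenin inside the cell. Type I members are strong adhesion molecules, and type II members, often expressed in combinations, help sort cell groups in the nervous system and mesenchyme. Protocadherins lack the catenin-binding tail. The non-clustered delta protocadherins are separate genes expressed in patterned tissue, and some delta-2 members bind the WAVE complex, which drives actin branching. The clustered protocadherins lie in 3 neighbouring arrays, alpha, beta and gamma, in which each first exon has its own promoter, CTCF and cohesin choose between promoters, and neurons use the resulting combinations to tell self from non-self. In the early face, neural crest cells exchange cadherins as they leave the neural tube and condense into mesenchyme.

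The 78 members comprised 4 type I, 12 type II and 4 atypical cadherins, 4 delta-1, 5 delta-2 and 3 other non-clustered protocadherins, and 4 alpha, 20 beta and 22 gamma protocadherins. Summed over members, the libraries held 561 to 715 TPM with a mean of 641 TPM. Classical cadherins made up 42.7% of it, the gamma cluster 28.4% and the non-clustered protocadherins 26.0%, while the 20 beta genes made up 2.08% and the 4 alpha genes 0.574%. A few genes carried most of these levels, for 2 members averaged 100 TPM or more, 11 averaged 10 TPM or more and 33 averaged less than 1 TPM.

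The highest was Cdh11, the cadherin of loose mesenchyme and later of bone-forming cells, with a lowest, median and highest level of 114, 140 and 170 TPM in mandibles and 107, 128 and 153 TPM in FNPs. It lies on chromosome 8 (GRCm38, 102632095 to 102785642, minus strand). Next was Pcdhgc3, a C-type gamma member, at 93.8 to 110 TPM in mandibles and 97.8 to 111 TPM in FNPs. Relative to its level it varied least of the 4 highest members, whereas Cdh11 varied between embryos. Pcdh18, a delta-2 protocadherin, was at 70.8, 81.2 and 95.4 TPM (lowest, median, highest) in mandibles and 92.9, 117 and 137 TPM in FNPs. Cdh2, or N-cadherin, the type I cadherin of migratory crest, mesenchyme and neural tissue, was at 61.8 to 72.7 TPM in mandibles and 42.8 to 55.6 TPM in FNPs. In this order Pcdhgc3 overlapped Pcdh18 in both tissues, Cdh11 overlapped Pcdhgc3 in FNPs only, and Cdh2 overlapped Pcdh18 in mandibles only.

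Below these came Cdh24 (type II, 23.1 to 35.2 TPM over all libraries), Cdh3, which is P-cadherin of epithelium (16.9 to 28.1 TPM), Pcdh10 (2.99 to 32.4 TPM), Cdh6, a type II cadherin of delaminating crest (12.8 to 22.3 TPM), Pcdh7 (9.34 to 19.1 TPM) and Pcdh1 (9.13 to 17.0 TPM). Each of these ranges overlapped that of the next. For scale, the 2 genes set aside were at 16.8 to 27.9 TPM (Cdh1, the epithelial E-cadherin) and 29.8 to 41.2 TPM (Cdh5, of endothelium). In the clusters, Pcdhgb6 followed Pcdhgc3 at 10.3 to 13.5 TPM, the highest beta members Pcdhb7 and Pcdhb22 averaged 1.64 and 1.48 TPM, and the highest alpha members Pcdhac2 and Pcdha11 averaged 3.0 and 0.350 TPM. Pcdha11 was listed at 0 in 1 library.

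**Figure D1:**
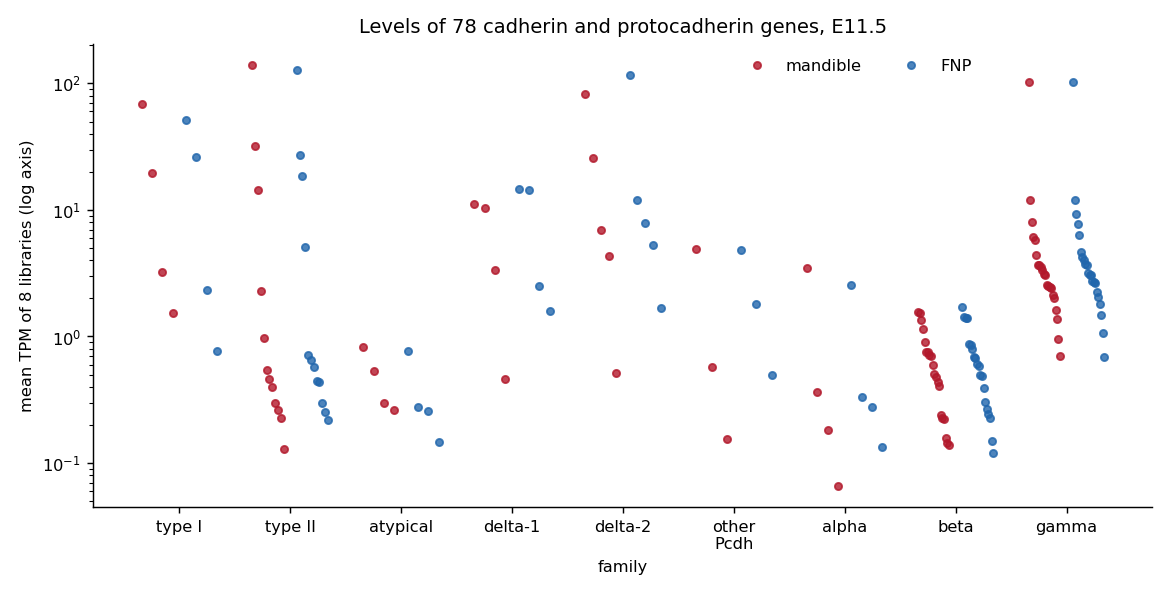
Mean TPM of each of the 78 members over the 8 mandible libraries (left, red) and the 8 FNP libraries (right, blue) by family, on a log axis. Each point is a gene. Cdh11, Pcdhgc3 and Pcdh18 lie at the top in both tissues, and the atypical cadherins stay below 1 TPM.

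The cluster members have to be read with their gene structure. In the GENCODE annotation of GRCm38, the alpha members span 36952648 to 37187661 on chromosome 18, the beta members 37294812 to 37524479 and the gamma members 37661793 to 37841873. All 22 gamma and all 4 alpha members share an exon with other members, and Pcdhgc3 and Pcdhgb6 each share exons with 21 others. Of the 20 beta genes, 16 have a single exon and 2 share an exon with another member. Reads from shared exons were divided among genes by estimation, so single alpha and gamma values rest in part on that division. The uncertainty that it adds was not measured.

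Differences were tested on log2 of the scaled gene values with limma, and called at an adjusted p of at most 0.05 over all genes tested. Of the 78 members, 74 had a gene value and 69 passed the filter on low values over both tissues. Cdh16, Cdh23, Pcdha4 and Pcdha11 had no gene value, and Cdh4 (R-cadherin, mean 1.93 TPM), Pcdhb9, Pcdhb10, Pcdhb13 and Pcdhb15 fell below the filter. These 9 genes were not tested.

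Between mandible and FNP, 26 of the 69 members tested differed, 8 higher and 18 lower in the mandible, which is 37.7% against 29.7% of all 14630 genes tested. By direction, the background was 11.9% higher and 17.8% lower. The differences lay mostly outside the clusters. Of the 15 classical cadherins tested, 5 were higher and 5 lower in mandibles, and of the 12 non-clustered protocadherins 1 was higher and 9 were lower. Of the 40 clustered members tested, 1 was higher and 4 were lower. The median log2 difference was -0.36 for the classical cadherins, -0.48 for the non-clustered protocadherins and -0.10 for the clustered members, and -0.01 for all genes.

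Pcdh10, a delta-2 protocadherin that binds the WAVE complex, had the largest rise in the mandible among members above 10 TPM. It was at 32.3, 24.5, 24.2 and 28.0 TPM in mutant mandibles and 24.2, 20.2, 32.4 and 20.5 TPM in control mandibles, against 12.8, 4.54, 4.0 and 11.8 TPM in mutant FNPs and 2.99, 4.39, 9.61 and 13.3 TPM in control FNPs. Every mandible lay above every FNP, with a log2 difference of 1.91 (SE 0.241, adjusted p = 8.71e-06). Among FNPs, embryos 3, 6, 7 and 8 were at 9.61 to 13.3 TPM and embryos 1, 2, 4 and 5 at 2.99 to 4.54 TPM.

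Cdh15, or M-cadherin, the type I cadherin of myoblasts, was at 1.95, 2.73 and 4.98 TPM (lowest, median, highest) in mandibles and 0.0763, 0.833 and 1.13 TPM in FNPs, again without overlap (log2 difference 2.21, SE 0.397). Skeletal muscle markers moved the same way, with 8 of 9 tested higher in mandibles and none lower, and a summed level of 41.1 to 130 TPM in mandibles against 7.45 to 15.1 TPM in FNPs. Myod1 was at 2.52 to 13.0 TPM in mandibles, and in FNPs it was at most 0.248 TPM and listed at 0 in 4 libraries. The part of muscle cells in the Cdh15 difference was not tested. Cdh19, a type II cadherin of Schwann cell precursors, was at 0.221 to 1.75 TPM in mandibles and 0.125 to 0.449 TPM in FNPs (log2 difference 1.68). The Schwann cell precursor markers did not move with it, since 3 of 6 tested were lower and none was higher in mandibles.

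Cdh2 was higher in the mandible of all 8 embryos and its tissue ranges did not overlap, although the log2 difference was only 0.41 (SE 0.0510, adjusted p = 7.09e-06). Cdh24 was also higher in the mandible of all 8 embryos (log2 difference 0.22). The other called members higher in mandibles were low, namely Cdh12 (log2 difference 1.32, 0.242 to 0.901 TPM in mandibles and 0.0815 to 0.404 TPM in FNPs), the atypical Cdh26 (0.91) and Pcdhac2 (0.50).

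Lower in the mandible were most non-clustered protocadherins. Pcdh20 was at 0.357, 0.571 and 0.976 TPM (lowest, median, highest) in mandibles and 1.43, 1.76 and 2.28 TPM in FNPs, and had the smallest p of all members (log2 difference -1.70, SE 0.164, adjusted p = 3.44e-07). Its groups were far apart in every embryo. Pcdh8, the paraxial protocadherin, which guides cell movements in the early embryo, was at 0.241 to 0.925 TPM in mandibles and 1.11 to 2.94 TPM in FNPs (log2 difference -1.75). Pcdh11x, a delta-1 member on the X chromosome, was at 0.234 to 0.714 TPM in mandibles and 1.01 to 2.43 TPM in FNPs (log2 difference -1.77). Both were apart in every library, while Pcdh15, a tip link protein of inner ear hair cells, overlapped between tissues (0.0614 to 0.278 TPM in mandibles, 0.183 to 0.982 TPM in FNPs, log2 difference -1.63).

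Abundant members were lower in mandibles by smaller steps. Pcdh18, the third member by level, differed by -0.49 (SE 0.0635, adjusted p = 1.22e-05), Pcdh1 by -0.47, Pcdh7 by -0.37 and Pcdh17 by -0.25 on the log2 scale. Pcdh19, which is mutated in an inherited epilepsy in humans, was at 4.98, 6.04 and 10.6 TPM (lowest, median, highest) in mandibles and 9.52, 12.1 and 14.5 TPM in FNPs (log2 difference -0.80). Its ranges overlapped through control embryo 2, the only embryo with more in the mandible (10.6 TPM) than in the FNP (9.52 TPM).

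Of the classical cadherins lower in mandibles, Cdh20 changed most, at 0.0420, 0.128 and 0.191 TPM (lowest, median, highest) in mandibles and 0.428, 0.635 and 0.949 TPM in FNPs (log2 difference -2.30, SE 0.250, adjusted p = 1.54e-06). Cdh3 was at 16.9 to 22.5 TPM in mandibles and 23.4 to 28.1 TPM in FNPs (log2 difference -0.43), and its epithelial partner Cdh1, set aside by the rule, was lower as well (-0.32, adjusted p = 0.00551). Epithelial markers summed to 283 to 342 TPM in mandibles and 420.8 to 524.3 TPM in FNPs, with 8 of 12 lower, 4 higher and none at 0. The part of epithelial cells in these differences was not tested. Cdh22 (-0.96), Cdh10 (-0.90) and Cdh6 (-0.36) were the remaining classical cadherins lower in mandibles.

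Neural markers also went down in the mandible. Of 12 neuron markers tested, 9 were lower and none higher, with summed levels of 74.0 to 123 TPM in mandibles against 218.4 to 314.5 TPM in FNPs. Of 11 markers of neural progenitors and olfactory placode, 10 were lower and 1, Dlx5, was higher, with summed levels of 169.5 to 224.5 TPM in mandibles against 197 to 301 TPM in FNPs. Dlx5, which mandibular mesenchyme also expresses, averaged 144 TPM in mandibles and 33.8 TPM in FNPs, and without it the sums were 43.2 to 62.9 TPM in mandibles and 161 to 272 TPM in FNPs. Six3 averaged 0.0801 TPM in mandibles, where it was listed at 0 in 2 libraries, against 25.0 TPM in FNPs. Sox1, Fezf1, Pax6 and Neurog1 were also listed at 0 in 2 to 7 of the 8 mandibles, and no neuron marker was at 0 in any library. Whether nervous tissue carried the differences of Cdh20, Cdh10, Cdh22, Pcdh8, Pcdh11x, Pcdh15 or Pcdh20, genes known from brain, was not tested.

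In the clusters, the called members were Pcdha12 (log2 difference -2.51, SE 0.610, at 0 to 0.171 TPM in mandibles and 0.110 to 0.514 TPM in FNPs), Pcdhb2 (-0.79), Pcdhga11 (-0.33), Pcdhgb7 (-0.22) and, upwards, Pcdhac2 (0.50). Pcdha12 was listed at 0 in 2 mandible libraries, so its fold depends on the added constant. Of the 22 gamma members, 19 had a negative and 3 a positive difference. The 16 beta members tested divided evenly, 8 positive and 8 negative, with a median of 0.01. Pcdhgc3 did not pass (log2 difference 0.00, 95% interval -0.07 to 0.08), nor did Cdh11 (0.12, -0.02 to 0.27), so the 2 highest members had intervals that exclude a 1.5-fold tissue difference.

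**Figure D2:**
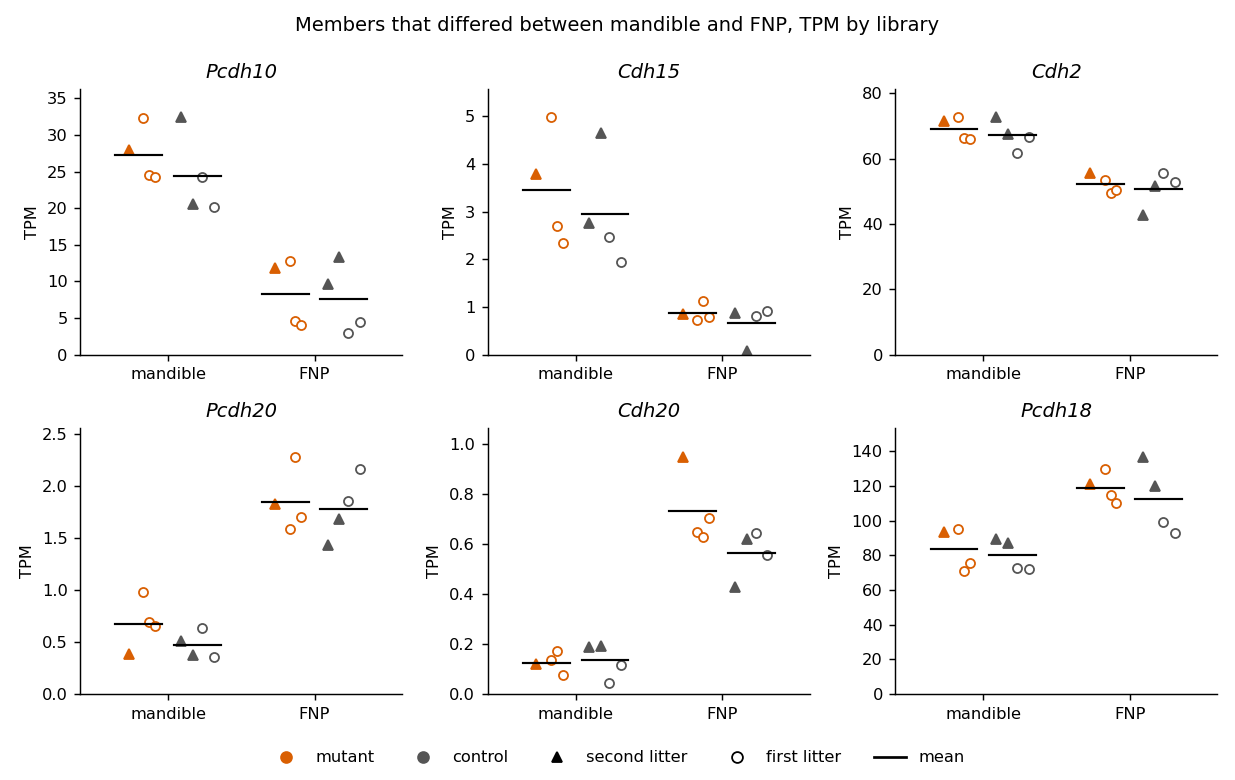
TPM of 6 members in each library, with mandibles left and FNPs right, mutants in orange and controls in grey. Triangles are the second litter, open circles the first litter, and lines are means of 4 libraries. Pcdh10, Cdh15 and Cdh2 lie higher in the mandible and Pcdh20 and Cdh20 lower without overlap, whereas Pcdh18 overlaps (70.8 to 95.4 TPM in mandibles, 92.9 to 137 TPM in FNPs).

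Counted on TPM without a model, 9 of the 78 members had no overlap between the 8 mandibles and the 8 FNPs (Cdh2, Cdh15 and Pcdh10 higher, Cdh3, Cdh20, Pcdh1, Pcdh8, Pcdh11x and Pcdh20 lower), where 7.72% of 18540 rows had none. Within the second litter alone 20 members were called (31.7% of those tested, against 13.6% of all genes), and within the first litter alone 16 (24.2% against 19.5%), with 18 and 15 of them among the 26. Leaving out embryo 3 gave 28 for the tissue comparison (40.6% against 28.9%).

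The starts of Pcdh10, Pcdh18 and Pcdh20 are shown because Pcdh10 and Pcdh18, delta-2 genes of the same chromosome, differed in opposite directions, and Pcdh20 had the smallest p. Each run covers 250 bases before to 50 bases after the RefSeq start on GRCm38.p6, read along the gene's strand, with CG dinucleotides in capitals. They are chr3:45378148-45378447 (plus strand), chr3:49757267-49757566 (minus strand) and chr14:88471347-88471646 (minus strand).
Pcdh10: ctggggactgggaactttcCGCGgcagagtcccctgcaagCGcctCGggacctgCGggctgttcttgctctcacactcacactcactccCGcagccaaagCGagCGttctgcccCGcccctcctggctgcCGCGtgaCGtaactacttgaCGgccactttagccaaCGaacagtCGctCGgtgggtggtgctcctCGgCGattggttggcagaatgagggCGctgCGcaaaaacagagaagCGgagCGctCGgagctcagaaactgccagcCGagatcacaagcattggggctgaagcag
Pcdh18: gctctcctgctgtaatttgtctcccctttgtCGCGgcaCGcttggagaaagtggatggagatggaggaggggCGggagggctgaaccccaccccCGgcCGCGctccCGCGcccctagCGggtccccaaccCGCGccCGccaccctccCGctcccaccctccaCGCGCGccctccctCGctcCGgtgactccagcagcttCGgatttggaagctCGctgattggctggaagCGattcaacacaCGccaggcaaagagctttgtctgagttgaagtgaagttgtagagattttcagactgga
Pcdh20: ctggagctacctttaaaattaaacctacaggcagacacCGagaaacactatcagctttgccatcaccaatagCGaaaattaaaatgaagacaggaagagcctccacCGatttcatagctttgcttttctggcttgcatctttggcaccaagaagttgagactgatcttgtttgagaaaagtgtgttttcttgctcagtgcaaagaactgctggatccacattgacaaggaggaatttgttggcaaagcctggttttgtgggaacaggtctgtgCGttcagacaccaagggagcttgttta
Pcdh10, higher in the mandible, and Pcdh18, lower in it, both hold a dense run of CG pairs (24 and 23), while Pcdh20, lower in the mandible, holds 4. Promoters were given for 22 members outside the clusters (25 starts), with a median of 14 CG pairs against 7 over all 32851 promoters. The abundant Cdh11, Cdh2 and Cdh3 were not among these members. The CArG box, the element bound by SRF, was found on either strand in 0 of the 25 against 1.63% of all promoters. So few starts cannot tell 0 from that share. TAATTA, a homeodomain core that reads alike on both strands, was found in 1 (Cdh7) against 5.29%. The E-box CAGCTG, also alike on both strands, was found in 3 (Cdh9, Cdh12 and Pcdh15) against 16.3%, and TATAAA on either strand in 2 (Pcdh8 and Pcdh15) against 13.6%.

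Partners of the members showed the tissue difference unevenly. Of 15 genes of catenins and the adherens junction tested, 1 was higher (Pkp4) and 8 were lower in mandibles, led by Nectin2 (log2 difference -0.41, adjusted p = 6.39e-07), Lima1 (-0.36), Arvcf (-0.40) and Jup, or plakoglobin (-0.36). Beta-catenin (Ctnnb1) differed by -0.03 (adjusted p = 0.618). Of 15 other genes of the cadherin superfamily, 1 was higher and 7 were lower, among them Cdhr1 of photoreceptors and olfactory bulb neurons (-6.63), the receptor kinase Ret (-5.26), Clstn1 (-0.45) and the giant cadherin Fat4 (-0.62). Of 14 regulators of the clusters, the DNA methyltransferase gene Dnmt3a was higher (0.28, adjusted p = 2.41e-06), and Dnmt3b (-0.49, adjusted p = 1.66e-05) and the cohesin gene Smc1a (-0.11) were lower. Ctcf differed by -0.06 (adjusted p = 0.340). Of 9 WAVE complex genes, 3 were lower, Cyfip2 (-1.62), Abi2 (-0.20) and Wasf1 (-0.16).

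No member was called for genotype. With both tissues in the model, limma called 0 of 69 members against 1.33% of 14630 genes (195 genes), and 9 members had an unadjusted p under 0.05 (17.4% of all genes did). In the FNP 0 of 65 were called against 0.106% of all genes, with 7 at an unadjusted p under 0.05 where 13.7% of all genes had such a p. In the mandible 0 of 63 were called against 0.1%, with 5 at an unadjusted p under 0.05 where 7.2% of all genes had such a p. These numbers of members are near or below the share of all genes. The smallest adjusted p was 0.113, 0.213 and 0.692 in the joint, FNP and mandible comparisons. All 9 of the joint comparison were higher in mutants.

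Across the list, 55 of 69 members had a positive joint difference (79.7%, against 50.7% of all genes), and the median log2 difference was 0.14 against 0.00. The share was 11 of 12 for type II cadherins (median 0.28), 13 of 16 for the beta cluster (0.17) and 17 of 22 for the gamma cluster (0.09). Since members share exons, embryos and litters, this is a description of the list.

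The smallest p belonged to Pcdhb3, a beta member. It was at 1.01, 0.769, 0.427 and 1.08 TPM in mutant mandibles (embryos 3 to 6) against 0.520, 0.522, 0.837 and 0.836 TPM in control mandibles (embryos 1, 2, 7 and 8), and at 0.927, 0.837, 0.887 and 1.26 TPM in mutant FNPs against 0.337, 0.360, 0.964 and 1.31 TPM in control FNPs. The high controls were the embryos of the second litter, and the groups overlapped in both tissues (joint log2 difference 0.63, SE 0.193, limma adjusted p = 0.113). Cdh10, a type II cadherin of neurons, was at 3.02, 1.62, 1.56 and 2.88 TPM in mutant mandibles against 1.68, 1.26, 3.10 and 3.12 TPM in control mandibles. In FNPs it was at 10.1, 3.74, 2.93 and 8.65 TPM in mutants against 1.63, 1.17, 4.86 and 7.78 TPM in controls. Its high mutants were embryos 3 and 6 in both tissues, and its high controls embryos 7 and 8 (joint log2 difference 0.77, SE 0.288, adjusted p = 0.184).

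Pcdh7, a delta-1 protocadherin, was at 15.0, 15.3, 13.5 and 19.1 TPM in mutant FNPs against 10.6, 13.1, 14.1 and 15.4 TPM in control FNPs. These overlapped, with a log2 difference of 0.31 in FNPs (SE 0.0867, limma adjusted p = 0.213) and 0.21 jointly. Cdh12 (joint log2 difference 0.77, adjusted p = 0.156 by limma) and Pcdhgb6 (0.10, adjusted p = 0.210) completed the 5 of smallest joint p. In the FNP these were Pcdh7, Pcdhb3 (0.89), Cdh10 (1.31), Pcdh17 (0.32) and Cdh8 (0.60). In the mandible they were Pcdh19 (-0.38), Pcdhga3 (0.29), Pcdhga1 (0.67), Pcdhb14 (1.11) and Cdh12 (0.76), all with an adjusted p of 0.692.

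On TPM, Pcdhga3 was the only member whose mutant and control mandibles did not overlap, at 4.61, 3.29, 3.73 and 3.88 TPM in mutants against 3.21, 2.90, 3.25 and 3.28 TPM in controls. That is 1 of 78 members, or 1.28%, against 2.32% of all rows. In FNPs it was 0 of 78 against 3.19%. The closest pair, 3.29 TPM in mutant embryo 4 and 3.28 TPM in control embryo 8, nearly touched.

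Several abundant members had narrow intervals in the joint model. That model counts both libraries of an embryo, although genotype is a feature of the embryo, so intervals between embryos may be wider. The joint log2 difference was 0.01 for Pcdhgc3 (95% interval -0.07 to 0.09), 0.04 for Cdh2 (-0.07 to 0.15), -0.03 for Cdh3 (-0.14 to 0.08), 0.17 for Cdh11 (0.02 to 0.32) and 0.14 for Pcdh18 (0.00 to 0.28). For Cdh10, which varied more between embryos, the interval was 0.16 to 1.38, and for Pcdh10 it was -0.18 to 0.87.

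**Figure D3:**
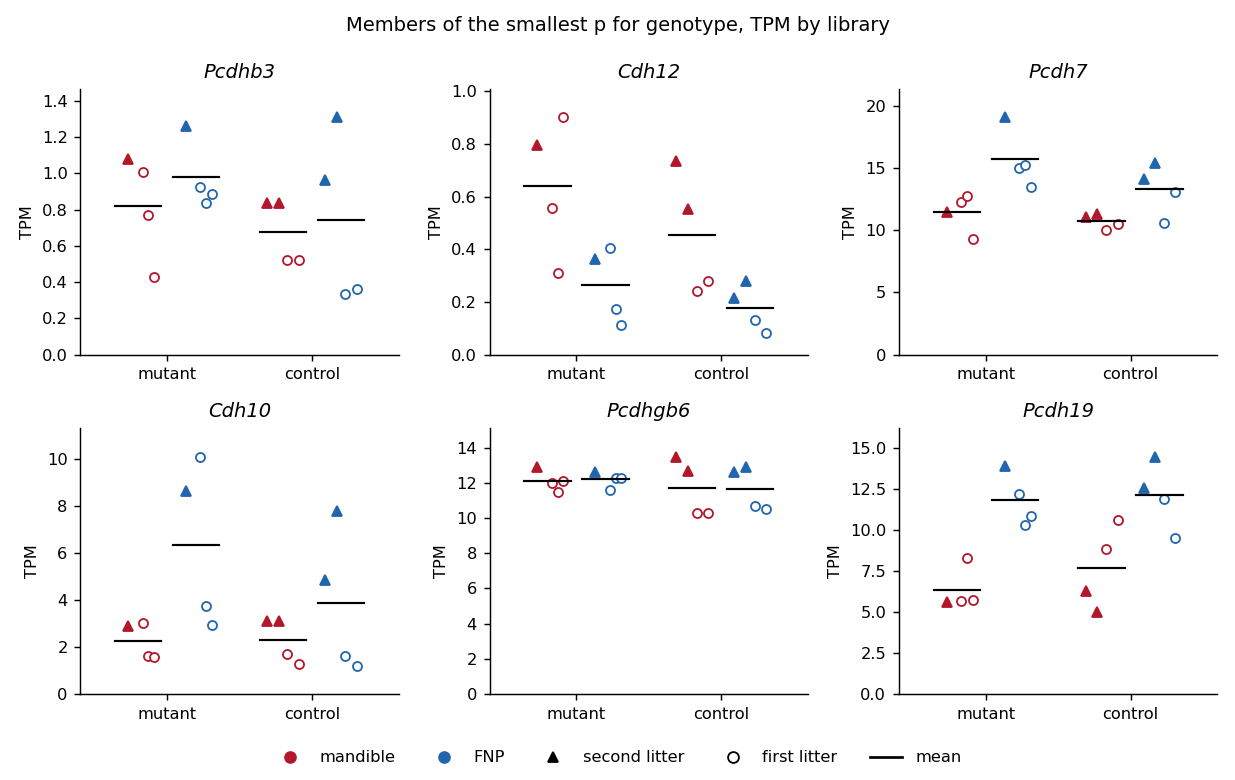
TPM of 6 members in mutants (left) and controls (right), with mandibles in red and FNPs in blue. Triangles are the second litter, open circles the first litter, and lines are means of 4 libraries. Control triangles lie near mutant levels for Pcdhb3 and Cdh10, and the mutant and control points overlap in all 6 panels.

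The effect of genotype was not shown to differ between tissues. The interaction called 0 of 69 members and 0% of all genes by limma, with 2 members at an unadjusted p under 0.05, Pcdhb6 (1.03) and Pcdhb14 (1.42), where all genes had 638. The smallest adjusted p of a member was 0.999.

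Among related genes, 2 of the 15 catenin and adherens junction genes were lower in mutants, Vcl, or vinculin, which ties alpha-catenin to actin (log2 difference -1.04, SE 0.0456, limma adjusted p = 2.40e-10), and Lima1, an actin cross-linker of the junction (-0.79, SE 0.0410, adjusted p = 2.21e-09). None of the 15 other superfamily genes, 14 cluster regulators and 9 WAVE genes was called, the smallest adjusted p among their named genes being 0.107 for Wiz (-0.10). All 7 lists of cell type markers had 0 genes called, with medians from -0.16 in neural progenitors to 0.52 in skeletal muscle.

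Between litters, 26 of the 69 members were higher in the second litter and none was lower. All genes had 26.1% called, 10.9% higher and 15.2% lower, so the 26 members, 37.7% of those tested, were all on the higher side. With both tissues averaged per embryo, 16 of these 26 passed. The median log2 difference was 0.27 over members and -0.01 over all genes, and 56 of 69 members were positive. In the beta cluster 16 of 16 were positive, 9 called and a median of 0.75. All 12 type II cadherins were positive and 7 were called (median 0.48). The gamma cluster had 5 of 22 called, the alpha cluster 1 of 2, the non-clustered protocadherins 3 of 12 (Pcdh10, Pcdh11x and Pcdh18) and the type I cadherins 0 of 3. With 2 litters, litter cannot be told apart from exact stage, handling or other features of each litter.

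Pcdhac2, the C-type end member of the alpha array, had the smallest p. In mandibles it was at 4.39, 4.0 and 4.89 TPM in the second litter (embryos 6, 7 and 8) against 2.51, 2.36, 4.27, 2.97 and 2.25 TPM in the first litter (embryos 1 to 5). In FNPs it was at 4.04, 2.81 and 3.75 TPM in the second litter against 1.59, 1.35, 3.38, 1.53 and 1.93 TPM in the first litter. Embryo 3 was the only one of the first litter that reached into the second in both tissues (log2 difference 0.87, SE 0.165, limma adjusted p = 0.00140).

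Pcdhb7 was at 1.84, 2.34 and 2.06 TPM in mandibles of the second litter against 0.782, 1.05, 1.97, 1.36 and 1.16 TPM in the first litter (log2 difference over both tissues 0.81, SE 0.164). Embryo 3 again had the high value of the first litter. Pcdhb3 was at 1.26, 0.964 and 1.31 TPM in FNPs of the second litter against 0.337, 0.360, 0.927, 0.837 and 0.887 TPM in the first litter, with no overlap (0.90, SE 0.199). Pcdhb16 (1.14), Pcdhb18 (1.16) and Pcdhb19 (0.70) were the other beta members among the 10 of smallest p. Summed over the 20 beta genes, the level was 14.6 to 19.7 TPM in mandibles of the second litter against 7.78 to 16.0 TPM in the first litter, and 16.0 to 19.1 TPM in FNPs against 9.13 to 14.2 TPM. The highest sum of the first litter was that of embryo 3 in both tissues, and without it every FNP and mandible of the first litter was at or below 11.6 TPM.

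Pcdhgb6 was the only member that was apart upwards in both tissues, 1 of 78 or 1.28%, where 1.54% of all rows were, so that count is near the background. It was at 12.9, 13.5 and 12.7 TPM in mandibles of the second litter against 10.3 to 12.1 TPM in the first litter, and at 12.6, 12.6 and 12.9 TPM in FNPs against 10.7, 10.5, 11.6, 12.3 and 12.3 TPM (log2 difference 0.19, SE 0.0405, limma adjusted p = 0.00295). Within the first litter, its mutants lay above its controls in both tissues. By contrast Pcdhgc3, its abundant neighbour, differed by -0.01 (95% interval -0.09 to 0.07).

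Among classical cadherins, Cdh11 was at 166, 153 and 152 TPM in mandibles of the second litter against 114, 116, 170, 120 and 127 TPM in the first litter, and at 139, 136 and 137 TPM in FNPs against 115, 107, 153, 120 and 116 TPM (log2 difference 0.29, SE 0.0735, limma adjusted p = 0.00821, and 0.0605 with the tissues averaged per embryo). Without embryo 3 the litters would not overlap in either tissue. Cdh10 was at 8.65, 4.86 and 7.78 TPM in FNPs of the second litter against 1.63, 1.17, 10.1, 3.74 and 2.93 TPM in the first litter, where embryo 3 was the highest of all (1.22, SE 0.297). Cdh24 differed by 0.26 (SE 0.0590), and Cdh6 by 0.27, whereas Cdh2 (0.01, 95% interval -0.10 to 0.13) did not pass.

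**Figure D4:**
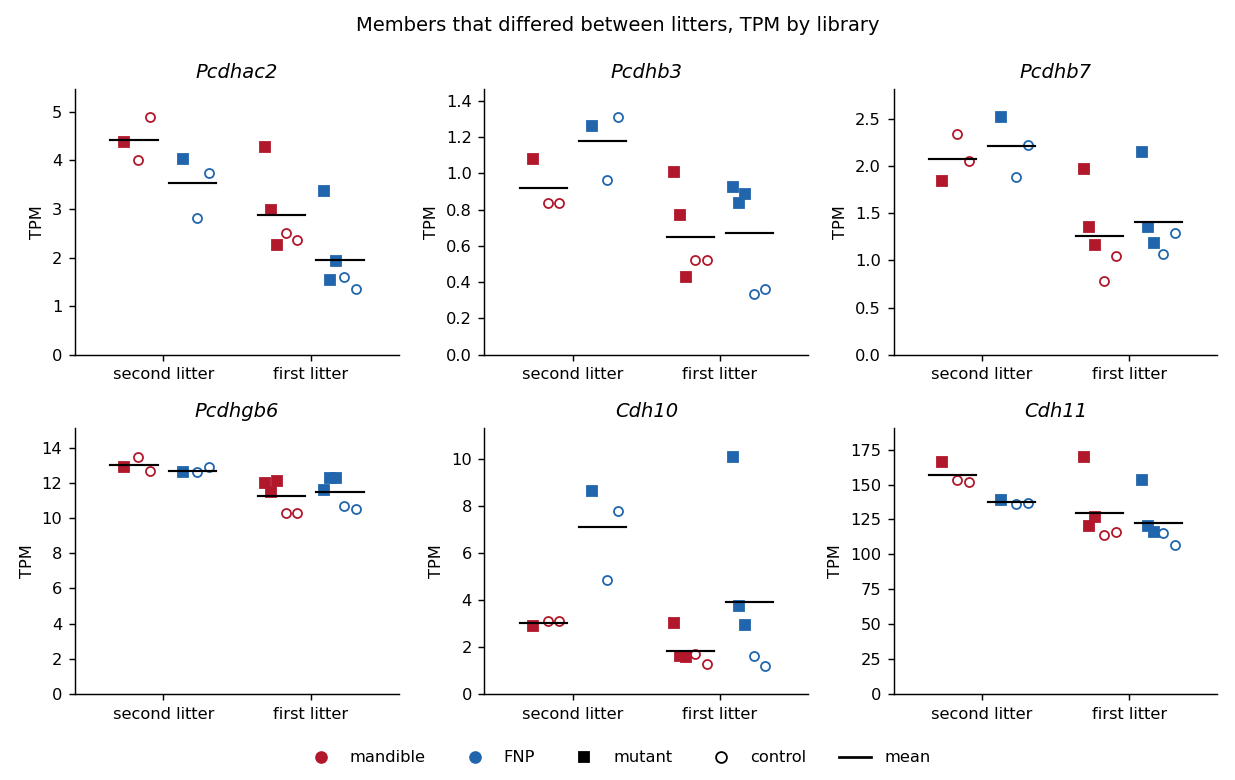
TPM of 6 members in the second litter (left, 3 embryos) and the first litter (right, 5 embryos), by library, with mandibles in red and FNPs in blue. Filled squares are mutants, open circles controls, and lines are means. The second litter lies higher on average in all 6 panels, and the isolated high square of the first litter in the Cdh10, Cdh11, Pcdhac2 and Pcdhb7 panels is embryo 3.

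On TPM, 14 of 78 members were apart between litters in FNPs (13 higher and 1, Cdh3, lower in the second litter), 17.9% against 12.1% of all rows. In mandibles it was 7 (5 higher and 2, Pcdh8 and Pcdhga11, lower), 8.97% against 11.7%. The limma count moved with the libraries used, and so did that over all genes. With FNPs alone 5 members passed (Cdh6, Pcdhac2, Pcdhb3, Pcdhb16 and Pcdhb19, all higher), 7.69% against 7.73% of all genes, and with mandibles alone 1, Pcdh8, which was lower (-1.35), 1.59% against 4.37%. The count was 12 without embryo 1 (17.4% against 16.1%), 16 without embryo 2 (23.2% against 17.9%) and 11 without embryo 8 (15.9% against 16.0%). It was 36 without embryo 3 (52.2% against 30.5%), 35 higher and 1 (Cdh3) lower. The 4 control embryos alone gave 25, all higher (38.5% against 24.4%).

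Litter is a feature of the embryo, and the model counts both libraries of an embryo. With the tissues averaged per embryo, 17 members passed (24.6% against 16.3% of all genes), 16 of the 26 and Pcdh8, which was lower. The 10 that no longer passed were Cdh11 (limma adjusted p = 0.0605), Cdh18, Cdh19, Cdh26, Pcdh11x, Pcdh18, Pcdhb17, Pcdhb20, Pcdhb21 and Pcdhgb4.

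Other lists also held litter differences. Of the 14 cluster regulators none was higher and 3 were lower in the second litter, Rad21 (-0.17), Dnmt3b (-0.33) and Stag2 (-0.16), and catenin genes divided 3 higher and 3 lower. Of the other superfamily genes, Dsc3 (1.31) and Clstn3 (0.39) were higher, and of the WAVE genes Abi2 (-0.22) and Brk1 (-0.17) were lower. Neuron markers had 0 of 12 called (median 0.06), neural progenitor and olfactory placode markers 2 of 11 lower, muscle markers 2 of 9 higher (median 0.81) and mesenchyme markers 3 higher and 1 lower of 10 (median 0.15). Epithelial markers had 2 higher and 3 lower of 12 (median -0.08), endothelial markers 1 higher and 3 lower of 10 (median 0.01) and Schwann cell precursor markers 0 of 6 called (median 0.25). Summed muscle markers were 81.1 to 118 TPM in mandibles of the second litter and 41.1 to 130 TPM in the first litter. Summed mesenchyme markers there were 1985 to 2004 TPM and 1702 to 2143 TPM. Both overlapped through embryo 3 alone (130 and 2143 TPM). Without it, first-litter mandibles were at 41.1 to 65.5 TPM (muscle) and 1702 to 1907 TPM (mesenchyme), below the second litter. FNP mesenchyme sums were 2383 to 2957 TPM in the second litter. Without embryo 3 (2726 TPM) the first litter was at 2215 to 2360 TPM. FNP muscle sums overlapped with or without embryo 3. With Dlx5 included, summed neural progenitor and olfactory placode markers did not overlap in mandibles. They were at 169.5 to 186.1 TPM in the second litter against 199.7 to 224.5 TPM in the first litter. In FNPs they overlapped, at 197 to 262 TPM against 240 to 301 TPM. Without Dlx5, which mandibular mesenchyme also expresses, the litters overlapped in both tissues. These sums were 43.2 to 52.4 TPM against 50.4 to 62.9 TPM in mandibles, and 161 to 225 TPM against 208 to 272 TPM in FNPs. The part of these cell types in the litter differences was not tested.

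**Figure D5:**
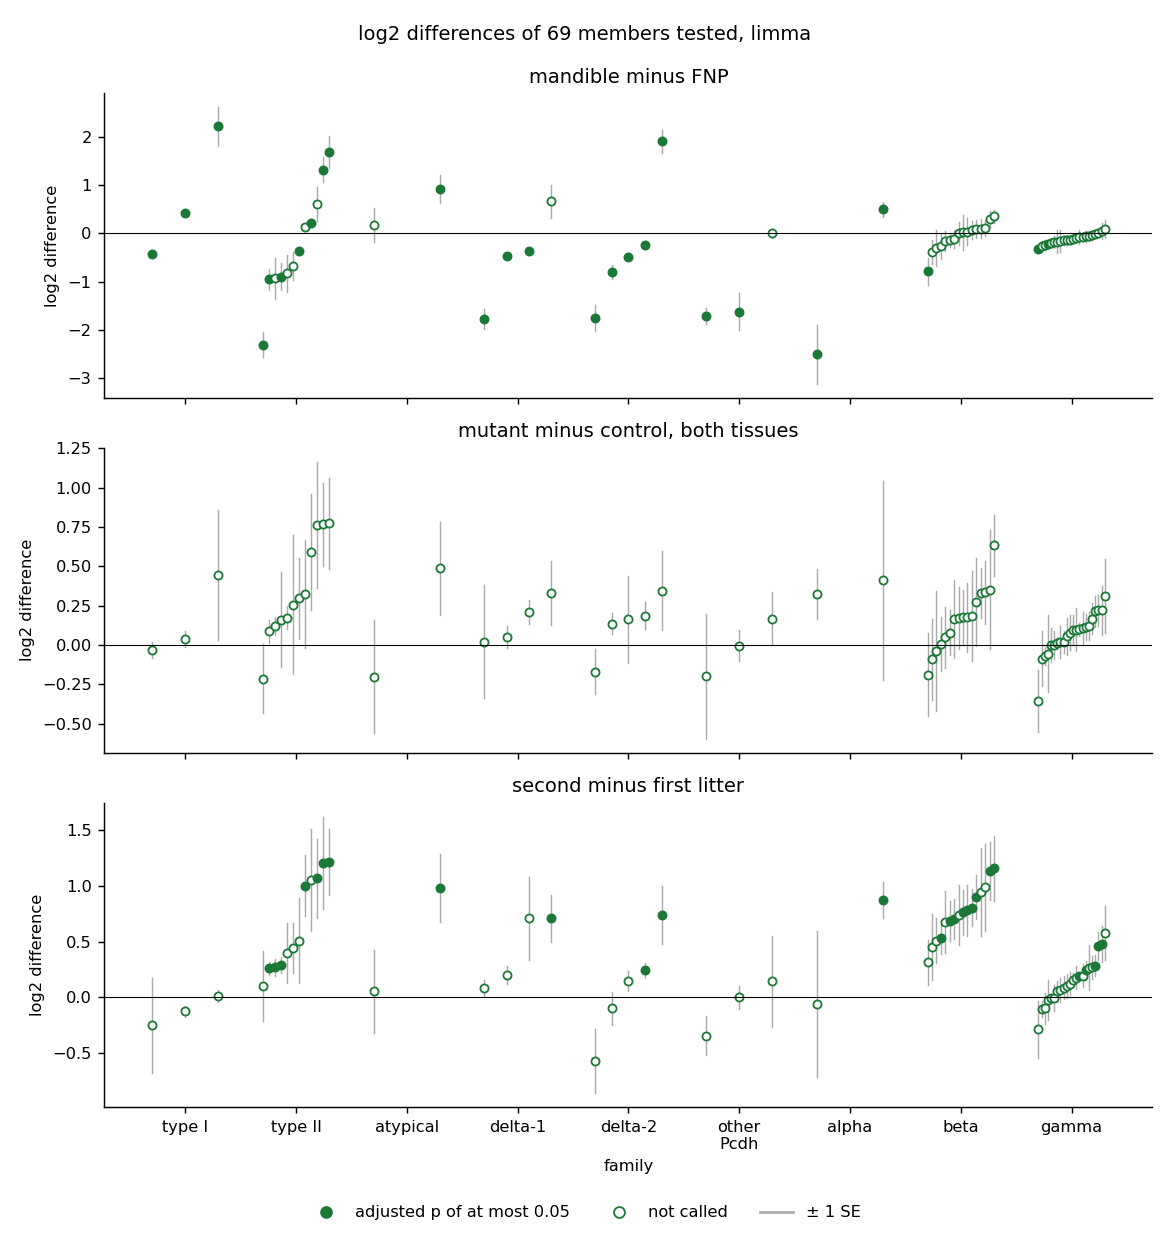
log2 difference of each of the 69 tested members by family, with mandible minus FNP at the top, mutant minus control in the middle and the second minus the first litter at the bottom. Points are genes, grey lines 1 SE, and filled points have a limma adjusted p of at most 0.05, which 26, 0 and 26 members reached. Most gamma and beta points lie near 0 between tissues, and all 16 beta points are above 0 between litters.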

How the data were processed

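RNA from 16 libraries was sequenced as paired reads after polyA selection. Per the labels and the study's methods, the authors quantified reads with Salmon 1.5.0 against the mouse transcriptome (mm10) and summed them to genes with sleuth 0.30.0-4. The deposited gene values are a signal, namely estimated counts divided by a size factor (15451 genes), and the deposited TPM values were likewise a signal rescaled per library, with sums of 0.921 m to 1.07 m. The authors' comparison tables (fold changes, p-values and q-values) were not used. Rows were joined to samples by the names of their columns.

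Gene values were tested with limma 3.58.1 (R 4.3.3) with a variance trend on log2(value + 0.5), for genes at 10 or more in at least 4 libraries, with Benjamini-Hochberg adjustment over all genes. Genotype, tissue and litter were in the model. A fold change on this scale understates that of low genes. The fits were tested on simulated data. Mandible and FNP of an embryo share the animal. After the mean of each tissue and genotype group was subtracted, with litter left in, they correlated by 0.099 to 0.234 in the 8 embryos. Some pairs from different embryos lay in this range, such as 0.213 for the mandible of embryo 7 and the FNP of embryo 6. The main model followed the study and left out the pairing of tissues by embryo, which was used as an alternative. Non-overlap was counted over rows with a mean of at least 0.1 TPM. The alternatives were the TPM table, another constant, no filter, no trend, equal totals, no litter term, an embryo block, subsets of libraries and leaving out each embryo. Members named were those of highest level per family, the called members of largest tissue difference, those of smallest p in each other comparison, and those at the TPM limit. Members, lists of related genes and markers were chosen with earlier results of these data known. In fits over both tissues, p-values measure the spread between libraries, 2 from each embryo, of 2 litters. In fits of 1 tissue or with tissues averaged per embryo, they measure the spread between embryos.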

Additional observations from a re-analysis of the deposited data

Results flagged for a closer look

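Each of the 42 named members was examined in each of the 4 groups of 4 libraries for a library far from the other 3 (gap to the nearest over the whole range, above Dixon's 95% critical value). Of 168 groups, 5 had such a library, where chance gives about 1 in 20. Pcdh1 was at 9.26 TPM in the mandible of mutant embryo 5, with the other mutants at 10.8 to 11.1 TPM. Pcdha11 was at 0.988 TPM in the mandible of mutant embryo 3, with the others at 0 to 0.166 TPM. Pcdh19 was at 8.28 TPM in the mandible of mutant embryo 4, with the others at 5.60 to 5.76 TPM. Cdh15 was at 0.0763 TPM in the FNP of control embryo 8, with the others at 0.812 to 0.921 TPM. Pcdhga3 was at 2.90 TPM in the mandible of control embryo 2, with the others at 3.21 to 3.28 TPM.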

How the results depend on the processing

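For genotype, the count of members called stayed at 0 in every alternative run except 1: leave-one-out counts ran from 0 to 1 in the joint comparison, the 1 being Pcdhgb6 without embryo 6 (0.17, limma adjusted p = 0.0364). Its joint difference turned to -0.0362 in the second litter alone. For tissue, 26 members passed, against 16 with the first litter alone, 17 with mutant libraries alone, and 22 to 28 in leave-one-out fits. With a replicate block for the embryo it was 28 (random) or 31 (fixed), all 26 included, so the pairing ended no call. For litter, 26 passed, against 17 with tissues averaged per embryo, 5 with FNPs alone, 1 with mandibles alone, 21 with the embryo block, 25 with controls alone (an alternative chosen after the data were seen) and 11 to 36 in leave-one-out fits. These counts are given without the share of all genes, which also moved between fits, so they describe the members only. The cause of the changes in count was not tested. Over all genes, 195 genotype calls became 367 without embryo 6. For single named members, 833 of the values kept direction and side of the threshold, 60 fell out of the call and 1 came in. The tissue calls lost most often were Pcdhb2 (8 of 17 settings), Pcdhac2 (7 of 20), Cdh10 (6 of 20), Cdh26 (6 of 18) and Cdh24 (4 of 20). Depth limits the beta and alpha members, most of them under 1 TPM.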
